A study of Mus musculus with 9 samples.

Results

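The enzymes described here build serine, one-carbon units, proline, purines and pyrimidines. They were 33 genes listed by symbol, and all 33 were found among the 23992 gene symbols of the expression tables, which were built on the mouse genome mm10 (GRCm38). Where a symbol had several transcripts, the transcript with the most reads over all libraries was taken, which concerned 6 of the 33. The listing rule itself used symbols and no difference between groups. A gene was tested if its RPKM reached 1 in 3 or more of the 9 libraries. All 33 met this, as did 10702 genes in all, but Shmt1 met it only through the IL-2 libraries and Dhodh not without them.

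The cells were regulatory T cells (Tregs) of BALB/c mouse spleens, marked by a green fluorescent protein linked to Foxp3. Every group, controls included, consisted of cells transduced with oIL-2Rβ, a mutated β chain of the IL-2 receptor, joined to a human EGFR (hEGFR) tag by which the cells were isolated. Per the labels' treatment protocol, all cells first spent 48 hours with CD3/CD28 beads and 1000 IU/mL hIL-2, and then a night without IL-2. The 3 groups of 3 libraries differed in the last 4 hours, which were spent without IL-2, with wild-type (WT) IL-2 at 20000 IU/mL, or with an orthogonal (ortho) IL-2 at 2000000 IU/mL. The 2 cytokines were therefore given at different doses. Age and sex of the mice, and whether replicates are separate animals or cultures, are not given in the labels, so p-values measure the spread between these libraries, which may be technical. The labels' growth protocol describes a co-culture assay and was not used here.

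Libraries held 16581624 to 58182835 reads in genes. All 5 T cell markers and all 5 Treg markers checked were abundant enough to be tested. Of 5 markers each, 1 B cell, 1 myeloid, 2 CD8 T or NK cell and 0 erythroid or platelet markers were. The summed level of the 5 CD8 T and NK cell markers was 7.96 to 8.25 without IL-2, 10.1 to 11.1 with WT IL-2 and 10.6 to 11.3 with ortho IL-2, and that of the myeloid markers found was 2.14 to 2.79, 1.36 to 1.72 and 1.57 to 1.65. Their part in the results was not tested. Reads outside the gene transcripts taken made up 38.9% to 43.3% of the divisor behind the RPKM values without IL-2, 29.1% to 34.9% with WT IL-2 and 25.7% to 32.99% with ortho IL-2. This share did not overlap between libraries with and without IL-2, and values fitted with it as a covariate are given where they end a call. WT IL-2 replicate 1 and ortho IL-2 replicate 3 differed most from the other libraries of their groups. With both left out, WT IL-2 gave 25 of the 33 genes called higher and 2 lower, and ortho IL-2 gave 23 and 3. Calls among all genes tested rose as well. For WT IL-2 they became 3010 higher and 2806 lower, in place of 2688 and 2446. For ortho IL-2 they became 3313 and 3047, in place of 3059 and 2867.

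Levels below are TMM-scaled RPKM, that is, RPKM with the TMM-scaled number of reads in genes as the divisor, and are given for the 3 no IL-2, the 3 WT IL-2 and the 3 ortho IL-2 libraries in that order. Tests of single genes are edgeR quasi-likelihood tests with Benjamini-Hochberg adjustment over the 10702 genes, and a gene is called at an adjusted p under 0.05. Below, at rest means the no IL-2 libraries, whose cells had been cultured with beads and IL-2 before the night without it. In bulk RNA, a change in the share of cells that express a gene and a change in RNA per cell cannot be told apart.

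Serine is made from the glycolytic intermediate 3-phosphoglycerate, and its breakdown to glycine hands a one-carbon unit to folate. Folate-bound one-carbon units, glycine, glutamine and aspartate are assembled on phosphoribosyl pyrophosphate into purines, while pyrimidines are built from glutamine, bicarbonate and aspartate. T cells that leave quiescence raise these pathways to make RNA, DNA and membrane precursors, and the transcription factors MYC and ATF4 are known to act on many of the genes. MYC with its partner MAX binds the E-box CACGTG, and ATF4 with C/EBP proteins binds elements of the form TGATGNAAN.

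Both motifs were therefore looked for on both strands of the 250 bases before a listed start of each gene. Starts came from the RefSeq promoter table for GRCm38.p6, in which 31 of the 33 genes had an entry (Pfas and Dhodh did not). Where several starts were listed, as for Nme1 (2), the first was used. A listed start can lie inside the gene's locus. For Gmps the listed window was chr3:63975893-63976192, and the locus began at 63963633. The E-box was found in 5 of the 31 (16.1%), against 6.05% of all 27025 promoters in that table and 8.90% of the 7923 promoters of tested genes. TGATGNAAN was found in 2 (6.45%), against 3.51% of all promoters and 1.92% of those of tested genes. A match is a description of these letters and not a binding site, and none of the 31 promoters searched held both motifs. The 7 stretches are shown 5′ to 3′ on the gene's strand, with the motif in capitals, because they place a known MYC or ATF4 word beside genes whose levels follow.
Aldh18a1: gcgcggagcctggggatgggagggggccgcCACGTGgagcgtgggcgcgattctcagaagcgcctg
Nme1: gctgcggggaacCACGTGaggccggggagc
Atic: ggacctcggggtCACGTGg
Impdh2: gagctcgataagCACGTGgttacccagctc
Paics: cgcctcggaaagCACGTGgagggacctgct
Pycr1: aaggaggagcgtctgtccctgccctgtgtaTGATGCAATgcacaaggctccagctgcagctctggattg
Prps1: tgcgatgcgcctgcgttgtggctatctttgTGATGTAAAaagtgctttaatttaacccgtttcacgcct

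The Aldh18a1 stretch is chr19:40588487-40588552 on the minus strand, with the E-box starting 59 bases before the gene start, and overlaps no annotated exon in GENCODE M21. The Nme1 stretch is chr11:93968273-93968302, minus strand, with the motif at 18 bases before the start and inside the 5′ exon of longer Nme1 transcripts and of the readthrough gene Gm20390. The Atic stretch is chr1:71557137-71557155, plus strand, with the motif at 7 bases, and the Impdh2 stretch is chr9:108560314-108560343, plus strand, with the motif at 110 bases. Both lie in untranslated exon sequence of longer transcripts of their own genes. The Paics stretch is chr5:76951087-76951116, plus strand, at 203 bases, and lies in untranslated exon sequence of Ppat, the neighbouring gene on the other strand. The ATF4-type words lie at chr11:120643813-120643881, minus strand, 103 bases before Pycr1, and at chrX:140456403-140456471, plus strand, 170 bases before Prps1, and neither stretch overlaps an annotated exon. The E-box genes changed by between -0.14 (Paics) and 1.85 (Nme1) in log2 fold change with WT IL-2.

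With WT IL-2, 23 of the 33 genes were called higher and 2 lower, and 8 were not called. Over all genes tested, 25.1% were called higher and 22.9% lower. The median log2 fold change of the 33 was 0.52, against 0.01 over all genes tested. With ortho IL-2, 23 were called higher, 3 lower and 7 not called, where 28.6% of all genes tested were called higher and 26.8% lower, and the median was 0.63 against 0.01. The 2 comparisons share the no IL-2 libraries and are not independent. Shmt1 is among the 23 and enters the median in each. It met the filter only through the IL-2 libraries, so its call in this fit is no support. Without a filter, 24 of the 33 were called higher for WT IL-2 and 23 for ortho IL-2. Of all genes, 3216 and 3818 were then called higher. At least 2-fold rises that passed the test were seen in 10 of the 33 with each cytokine, Shmt1 among them, where 3.50% of all genes tested rose as much for WT IL-2 and 3.85% for ortho IL-2. On unscaled RPKM tested with limma, which moved the median of all genes to 0.19 and 0.25, the counts of the 33 became 28 higher, 1 lower for WT IL-2 and 27 and 1 with ortho IL-2. The genes added were Psph, Dhodh, Prps2 and Hprt with each cytokine, and Gmps with WT IL-2. The same scaling called 4455 of all genes higher and 841 lower with WT IL-2, in place of 2688 and 2446, and 5557 and 832 with ortho IL-2, in place of 3059 and 2867. With that share of reads as a covariate, 15 of the 33 were called higher with each cytokine and 1 lower, and the genes whose call ended are named in their paragraphs. That fit called 1201 of all genes higher and 902 lower with WT IL-2, and 912 and 638 with ortho IL-2.

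**Figure D1:**
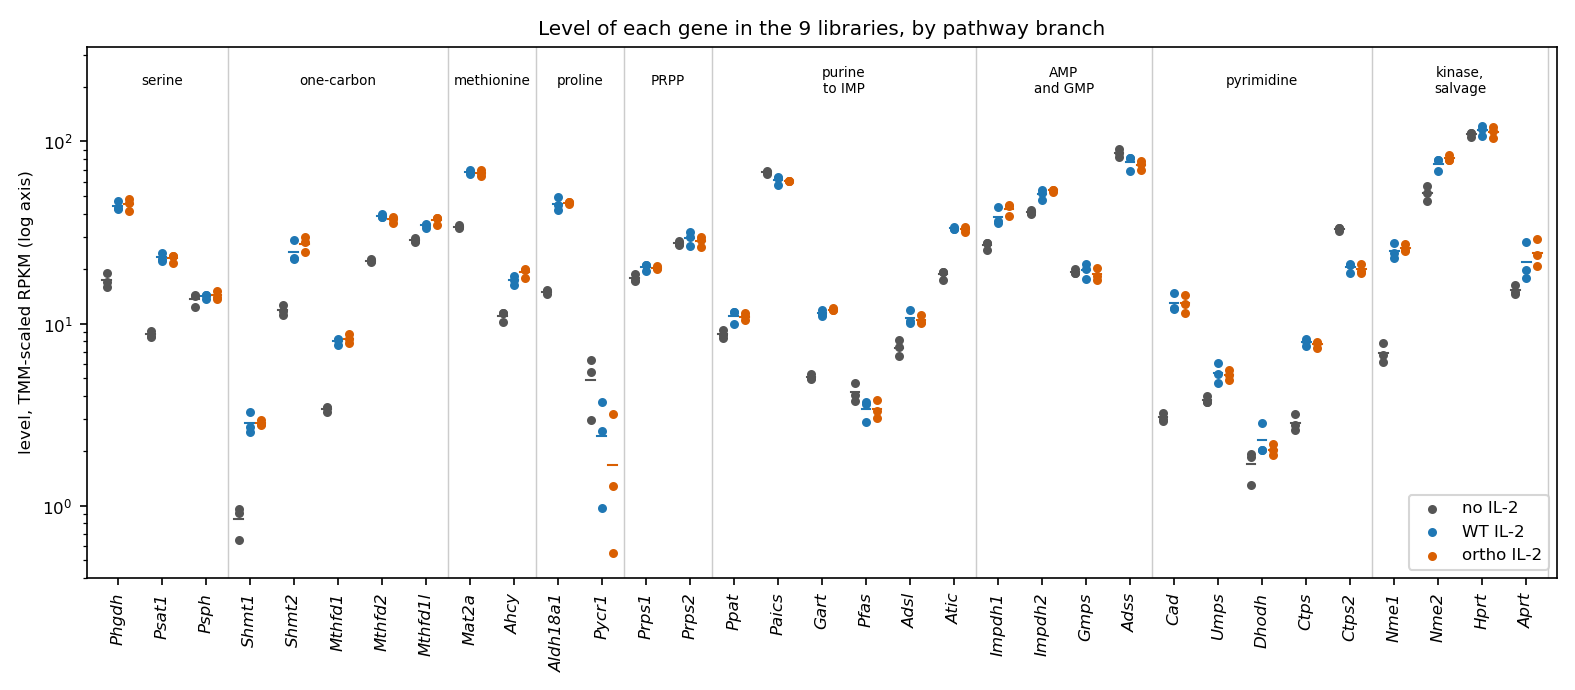
Level of the 33 genes in each of the 9 libraries (TMM-scaled RPKM, log axis), grouped by pathway branch; points are libraries, short lines group means of 3. The IL-2 libraries of Cad (11.4 to 14.7), Nme1 and Aldh18a1 stand clear above the 3 without IL-2, those of Ctps2 (19.0 to 21.3) stand below them, and the 3 groups overlap for Psph, Gmps, Prps2 and Hprt.

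Serine synthesis runs through 3 enzymes. Phgdh, the dehydrogenase that commits 3-phosphoglycerate to serine (chromosome 3, 98313171 to 98339969), lay at 15.96, 16.95 and 19.1 without IL-2, at 46.9, 42.7 and 43.3 with WT IL-2, and at 46.1, 41.3 and 48.2 with ortho IL-2. Every library with IL-2 was above every one without. Phgdh rose 2.57-fold with WT IL-2 (log2 fold change 1.36, SE 0.08; edgeR adjusted p = 3.74e-07) and 2.62-fold with ortho IL-2. Psat1, the aminotransferase of the next step (chromosome 19, 15905123 to 15925059), lay at 8.54, 9.10 and 8.47, then 22.6, 24.4 and 22.2, then 23.6, 21.5 and 23.6. Its groups with and without IL-2 did not overlap either, and it rose 2.65-fold and 2.63-fold. Psph, the phosphatase that releases free serine, lay at 12.3 to 14.4 without IL-2 and at 13.7 to 15.2 in the 6 IL-2 libraries, so that the groups overlapped. It was not called, with a 1.03-fold value for WT IL-2 (edgeR adjusted p = 0.627) and 1.05-fold for ortho IL-2 (0.453). Phgdh has 17 near-identical copies in the annotation (at least 90% identity over at least 30% of the transcript), of which Gm6756 and Gm8096 were in the tables with 2433 reads over the 9 libraries against 21224 for Phgdh. Near-identical copies also exist for Psat1, Paics, Impdh2, Ctps, Prps1, Nme2, Mat2a and Ahcy, so the levels of these 9 genes are uncertain where the counting could split reads.

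The folate enzymes load, oxidise and release one-carbon units in the cytosol and in mitochondria. All 5 were called higher in each comparison, where 25.1% (WT IL-2) and 28.6% (ortho IL-2) of all genes tested were. Among the 5, Shmt1 rests on the fit without a filter given below. Mthfd1l lost its WT IL-2 call with the covariate. Shmt1, the cytosolic serine hydroxymethyltransferase (chromosome 11, 60788897 to 60811265), was the lowest of the 33 genes at rest. It lay at 0.964, 0.910 and 0.652 without IL-2, at 3.25, 2.52 and 2.71 with WT IL-2 and at 2.95, 2.81 and 2.77 with ortho IL-2. That is 3.28-fold and 3.30-fold higher, on 22 reads in the shallowest no IL-2 library. Because Shmt1 met the filter only where it is high, its test there is no support, and the fit of all genes without a filter gave 3.41-fold and 3.47-fold (edgeR adjusted p = 1.75e-07 and 1.42e-07). Shmt2, the mitochondrial form, went from 11.2, 11.7 and 12.6 to 28.7, 22.7 and 23.0 with WT IL-2 and 27.9, 24.9 and 29.7 with ortho IL-2, 2.11-fold and 2.34-fold. With WT IL-2 its rise was under 2-fold, though still called, with GC offsets (1.82-fold) and with the covariate (1.93-fold). It was 1.94-fold without WT IL-2 replicate 1 and ortho IL-2 replicate 3. Reads of Shmt1 can be shared with Smcr8, and those of Shmt2 with Ndufa4l2, which overlap them on the other strand.

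Mthfd1, the cytosolic enzyme with 3 folate activities, went from 3.26, 3.48 and 3.44 to 8.10, 8.25 and 7.59 with WT IL-2 and 8.22, 7.80 and 8.78 with ortho IL-2 (2.35-fold and 2.44-fold). Its mitochondrial counterparts changed less. Mthfd2, the mitochondrial dehydrogenase and cyclohydrolase, went from 21.7, 21.9 and 22.7 to 39.8, 38.3 and 38.7 and to 35.8, 37.7 and 38.4 (1.76-fold and 1.69-fold). Mthfd1l, which releases formate from mitochondrial folate, lay between 28.1 and 29.5 without IL-2 and between 33.5 and 38.2 in the 6 IL-2 libraries (1.21-fold and 1.29-fold). The groups of both genes with and without IL-2 did not overlap. With the covariate, Mthfd1l was not called with WT IL-2 (edgeR adjusted p = 0.051) and was still called with ortho IL-2 (0.036), at log2 fold changes of 0.30 and 0.40 against 0.27 and 0.37 without it.

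The methionine cycle turns methionine into S-adenosylmethionine, the methyl donor of the cell, and takes apart what methylation leaves. Mat2a, the catalytic subunit that makes S-adenosylmethionine (chromosome 6, 72432796 to 72439556), lay at 33.3, 34.9 and 33.8 without IL-2, at 65.8, 70.1 and 67.9 with WT IL-2 and at 69.8, 66.9 and 64.5 with ortho IL-2. The spread within each group was small beside the gap between them, and the rise had log2 fold changes of 1.00 and 0.98 (SE 0.05 each; edgeR adjusted p = 9.72e-08 and 1.08e-07). Ahcy, which hydrolyses S-adenosylhomocysteine, rose from 10.2, 11.4 and 11.4 to 18.3, 17.3 and 16.2 and to 19.8, 17.8 and 19.9, 1.57-fold and 1.75-fold.

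Proline is made from glutamate in a pathway that begins with the enzyme of Aldh18a1 and ends with a reductase such as that of Pycr1. Aldh18a1 (chromosome 19, 40550257 to 40588463), whose promoter E-box is shown above, lay at 14.5, 15.2 and 15.3 without IL-2, at 49.3, 44.6 and 42.2 with WT IL-2 and at 46.4, 45.3 and 46.7 with ortho IL-2. Every IL-2 library was at least 42.2 and every other at most 15.3. The rise was 3.03-fold with WT IL-2 (log2 fold change 1.60, SE 0.06; edgeR adjusted p = 1.73e-08) and 3.08-fold with ortho IL-2 (1.80e-08).

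Pycr1 (chromosome 11, 120638998 to 120643748) varied more within groups than any other of the 33 genes. It lay at 6.28, 5.40 and 2.96 without IL-2, at 2.55, 0.977 and 3.73 with WT IL-2 and at 3.20, 1.29 and 0.548 with ortho IL-2. The groups overlapped, and it was not called, with log2 fold changes of -1.03 (SE 0.70; edgeR adjusted p = 0.263) and -1.57 (SE 0.72; 0.102). Within each IL-2 group its level was ordered as the share of reads outside genes was, from 0.548 in the library with 25.7% to 3.73 in the one with 34.9%, but not within the libraries without IL-2. With that share as a covariate its values were 1.23 and 1.18, again not called (edgeR adjusted p = 0.13 and 0.24). Without ortho IL-2 replicate 1 it was called lower with ortho IL-2, at -2.55. Aldh18a1 showed no such order, as the plot of both genes against the share shows.

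**Figure D2:**
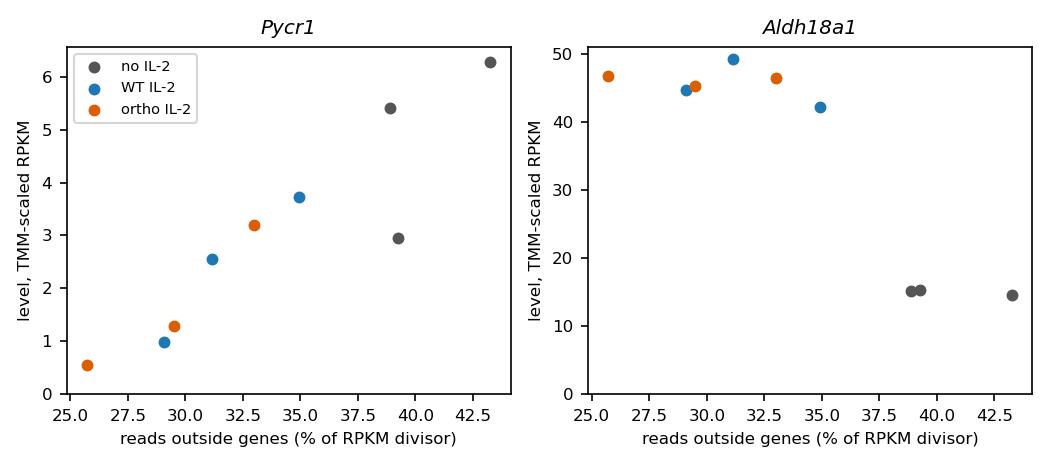
Level of Pycr1 (left) and Aldh18a1 (right), in TMM-scaled RPKM, in each of the 9 libraries against the share of reads outside genes, in % of the divisor behind the RPKM values. Pycr1 runs from 0.548 at 25.7% to 6.28 at 43.3%. WT and ortho IL-2 libraries lie next to each other along the share, and those without IL-2 lie apart at 38.9% to 43.3%. The 6 IL-2 libraries of Aldh18a1 stay at 42.2 to 49.3 over shares of 25.7% to 34.9%.

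Phosphoribosyl pyrophosphate, the sugar on which nucleotides are built or salvaged, is made by Prps1 and Prps2. Prps1 lay at 17.4, 18.7 and 17.2 without IL-2, at 19.4, 21.1 and 20.9 with WT IL-2 and at 20.1, 20.6 and 19.8 with ortho IL-2. The groups did not overlap, but the rise was 1.15-fold and 1.13-fold only (edgeR adjusted p = 0.0147 and 0.022). It was not called with the covariate (0.26 and 0.45), at log2 fold changes of 0.19 and 0.17 against 0.20 and 0.18 without it. It was also not called with WT IL-2 without no IL-2 replicate 1 or 3, nor with ortho IL-2 without no IL-2 replicate 1 or 3 or ortho IL-2 replicate 1 or 2. Prps1 shares 93.2% of a stretch of 1478 bases with Prps1l3, which held 22315 reads against 11440 for Prps1, so its level is uncertain. Prps2 lay at 27.0 to 28.4 without IL-2 and at 26.5 to 31.6 with it, and was not called (1.07-fold and 1.03-fold), though it was with GC offsets (log2 fold change 0.21 and 0.22).

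The steps from phosphoribosyl pyrophosphate to inosine monophosphate (IMP) gave 4 genes higher, 1 lower and 1 not called among 6 with WT IL-2, where 25.1% of all genes tested were higher and 22.9% lower, and the same counts with ortho IL-2 (28.6% and 26.8%). Gart, which carries 3 of the steps and uses formyl folate (chromosome 16, 91621395 to 91646972), rose most. It went from 4.97, 5.04 and 5.28 to 11.9, 11.05 and 11.3 with WT IL-2 and 12.1, 11.8 and 11.8 with ortho IL-2, 2.24-fold and 2.35-fold (edgeR adjusted p = 8.82e-08 and 6.05e-08). Atic, which adds the last carbon and closes the ring, lay at 19.3, 19.2 and 17.3, then 33.04, 33.2 and 33.99, then 33.8, 31.9 and 33.2, rising 1.79-fold and 1.77-fold. These 2 enzymes are the ones that take up folate-bound one-carbon units.

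Adsl, a lyase that acts here and again on the way to AMP, rose 1.47-fold and 1.42-fold, lying between 6.63 and 8.07 without IL-2 and between 10.04 and 11.9 with it. Ppat, the amidotransferase of the committed step, rose 1.27-fold and 1.25-fold, lying between 8.29 and 9.25 without IL-2 and between 9.98 and 11.6 with it. With the covariate neither Adsl (edgeR adjusted p = 0.11 and 0.39) nor, for ortho IL-2, Ppat (0.084) was called. The log2 fold changes were then 0.34 and 0.24 for Adsl, against 0.55 and 0.51, and 0.44 for Ppat, against 0.32.

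Paics, which carries 2 middle steps and starts beside Ppat on the other strand (chromosome 5, 76951302 to 76967509), was among the most abundant of the 33. It lay at 68.9, 68.1 and 66.2 without IL-2, at 57.3, 64.1 and 62.8 with WT IL-2 and at 60.6, 60.7 and 60.6 with ortho IL-2. The groups did not overlap and the fall was small, with log2 fold changes of -0.14 and -0.16 (edgeR adjusted p = 0.0375 and 0.0199). Its direction depended on the scaling, since unscaled RPKM gave 0.07 and 0.11, not called. With WT IL-2, leaving out any 1 no IL-2 library, WT IL-2 replicate 1 or 3 or ortho IL-2 replicate 1 ended the call, as did the covariate (-0.13). With ortho IL-2, the covariate ended it (-0.14), and so did leaving out no IL-2 replicate 1 or 2 or ortho IL-2 replicate 1. Pfas, the amidotransferase between them in the pathway, lay at 3.75 to 4.74 without IL-2 and at 2.89 to 3.81 with it. It was not called by edgeR (log2 fold change -0.30 and -0.31; adjusted p = 0.0645 and 0.0534), but DESeq2 and GC offsets called it lower with both cytokines.

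From IMP the pathway forks to GMP through Impdh1, Impdh2 and Gmps, and to AMP through Adss and Adsl. Impdh1, one of the IMP dehydrogenases (chromosome 6, 29200436 to 29216364), lay at 25.5, 27.6 and 27.6 without IL-2, at 43.6, 36.5 and 35.6 with WT IL-2 and at 44.1, 38.9 and 44.5 with ortho IL-2. Impdh2, the form linked to proliferation, lay at 40.2, 42.1 and 40.5, then 52.2, 54.3 and 47.6, then 54.3, 52.7 and 54.3. Neither gene's IL-2 libraries reached down to those without. Impdh1 rose 1.44-fold and 1.58-fold and Impdh2 1.25-fold and 1.31-fold. Neither was called with the covariate (edgeR adjusted p = 0.078 and 0.072 for Impdh1, 0.14 and 0.16 for Impdh2). The log2 fold changes were then 0.42 and 0.53 for Impdh1, against 0.52 and 0.66, and 0.22 and 0.26 for Impdh2, against 0.33 and 0.39.

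Gmps, which aminates the product to GMP, lay at 18.9 to 19.8 without IL-2 and 17.4 to 21.2 with it, and was not called (log2 fold change 0.03 and -0.05). With GC offsets it was called higher, at 0.22 and 0.24. Adss, the first enzyme towards AMP (chromosome 1, 177763176 to 177796695), lay at 86.3, 90.9 and 82.4 without IL-2, at 68.8, 81.5 and 81.5 with WT IL-2 and at 74.9, 77.6 and 69.6 with ortho IL-2. All 6 IL-2 libraries were below the 3 others, by 1.12-fold with WT IL-2 (not called, edgeR adjusted p = 0.091) and 1.17-fold with ortho IL-2 (called lower, 0.025). The ortho IL-2 call ended with the covariate (log2 fold change -0.13, against -0.23), with GC offsets, and without no IL-2 replicate 1 or 2 or ortho IL-2 replicate 1 or 3, and unscaled RPKM turned the value to 0.05.

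**Figure D3:**
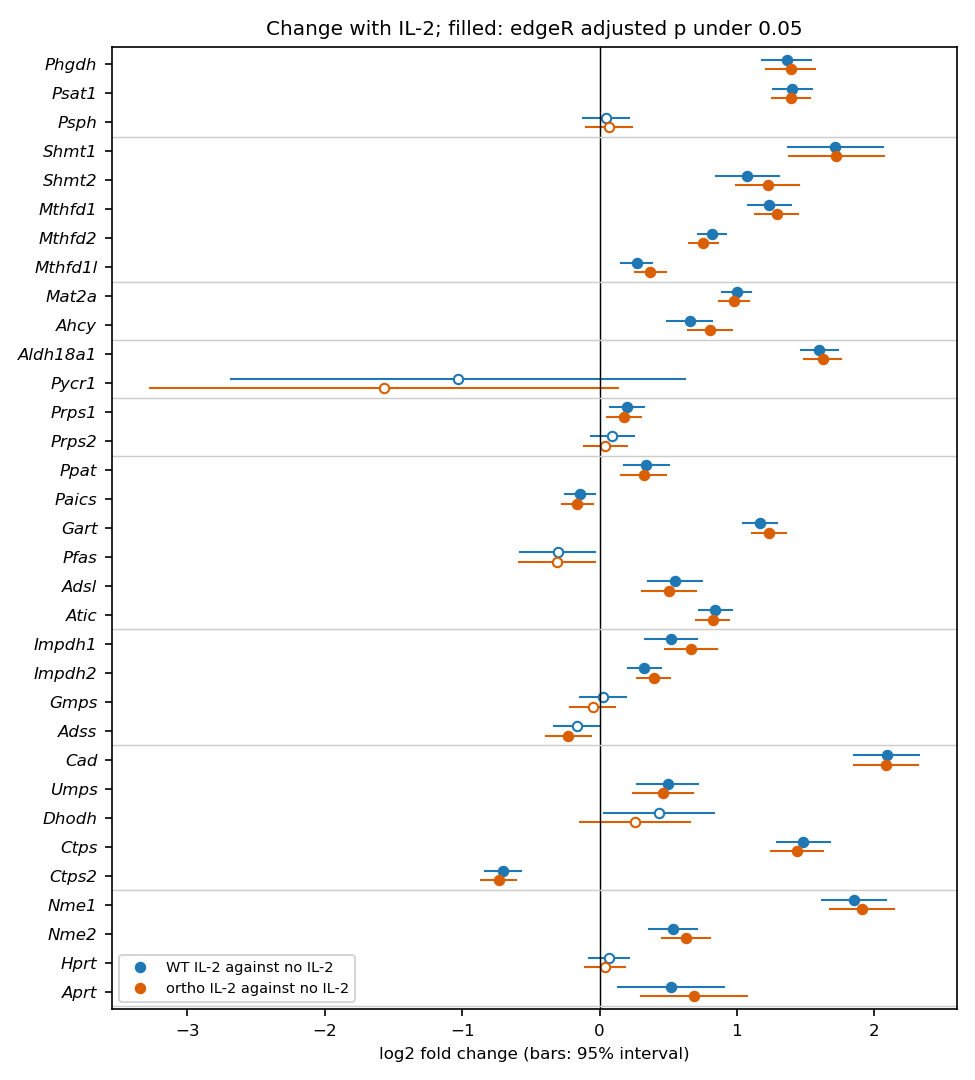
Log2 fold change of each of the 33 genes against no IL-2, for WT IL-2 (blue) and ortho IL-2 (orange), with bars for the 95% interval; filled circles passed the edgeR test. Cad reaches 2.09 with each cytokine, Ctps2 lies at -0.70 and -0.73, and the bars of Pycr1 are the widest.

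Pyrimidine synthesis held the strongest response of the 33. Cad, the fused enzyme of the opening 3 steps (chromosome 5, 31054620 to 31078479), lay at 2.93, 3.01 and 3.22 without IL-2, at 14.7, 12.1 and 11.96 with WT IL-2 and at 12.9, 11.4 and 14.4 with ortho IL-2. Its lowest IL-2 library was over 3 times its highest library without IL-2. The rise was 4.25-fold and 4.24-fold, the largest by fitted fold among the 33 genes in each comparison (log2 fold change 2.09, SE 0.10, in both; edgeR adjusted p = 1.24e-07 and 1.29e-07). Dhodh, the mitochondrial enzyme of the next step, was low, at 1.85, 1.91 and 1.29 without IL-2, 2.86, 2.01 and 2.01 with WT IL-2 and 2.02, 1.90 and 2.18 with ortho IL-2. It was not called (log2 fold change 0.43, SE 0.18, edgeR adjusted p = 0.0724, and 0.26, SE 0.18, 0.247), at 49 reads in the shallowest no IL-2 library. Umps, which completes UMP, lay between 3.71 and 4.01 without IL-2 and between 4.73 and 6.05 with it, a 1.41-fold and 1.37-fold rise, and was not called with the covariate (edgeR adjusted p = 0.23 and 0.5, at log2 fold changes of 0.32 and 0.24 against 0.50 and 0.46).

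The CTP synthases, which turn UTP into CTP, moved in opposite directions. Ctps (chromosome 4, 120539868 to 120570276), the form that proliferating lymphocytes are known to need, lay at 2.76, 2.61 and 3.19 without IL-2, at 7.54, 8.06 and 8.19 with WT IL-2 and at 7.91, 7.84 and 7.32 with ortho IL-2. Ctps2 (chromosome X, 162901268 to 163034541) lay at 32.4, 33.4 and 33.5, then 19.0, 20.9 and 21.1, then 19.5, 21.3 and 19.0. In neither gene did the libraries with and without IL-2 overlap. Ctps rose 2.80-fold and 2.71-fold (edgeR adjusted p = 3.36e-07 and 4.23e-07), and Ctps2 was 1.63-fold and 1.66-fold lower (4.91e-06 and 3.35e-06). Both calls held under every setting run, including unscaled RPKM, the covariate, GC offsets and the leaving out of each library in turn. Ctps2 was still the more abundant form with IL-2, and the summed level of both was 35.1, 36.0 and 36.7 without IL-2, 26.6, 29.0 and 29.3 with WT IL-2 and 27.4, 29.1 and 26.3 with ortho IL-2. Ctps has a near-identical copy, Gm16465, that was not in the tables.

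Nucleoside diphosphate kinases pass phosphate from ATP to the other nucleotides. Nme1 (chromosome 11, 93958925 to 93968272) lay at 6.18, 7.85 and 6.73 without IL-2, at 27.6, 24.5 and 22.8 with WT IL-2 and at 25.4, 24.9 and 27.5 with ortho IL-2, a 3.61-fold and 3.75-fold rise (edgeR adjusted p = 2.82e-07 and 2.31e-07). Its neighbour Nme2 was the more abundant, at 52.2, 56.9 and 47.1, then 79.3, 78.7 and 68.7, then 78.8, 79.5 and 83.997. Nme2 rose 1.45-fold and 1.55-fold, and was not called with the covariate (edgeR adjusted p = 0.071 and 0.091, at log2 fold changes of 0.37 and 0.43 against 0.53 and 0.63). The readthrough gene Gm20390 shares the exons of both, so their reads cannot be told apart from its own.

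Salvage enzymes rebuild nucleotides from free bases. Hprt, which salvages hypoxanthine and guanine, was the most abundant of the 33 genes at rest, at 112, 111 and 106. It lay at 107, 121 and 117 with WT IL-2 and at 114, 121 and 104 with ortho IL-2, so that the groups overlapped, and it was not called (1.05-fold and 1.03-fold, or called higher at log2 fold changes of 0.24 and 0.28 with GC offsets). Aprt, which salvages adenine, lay at 16.3, 15.0 and 14.5, then 28.2, 17.8 and 19.7, then 23.9, 20.7 and 29.0. The IL-2 libraries were all above the others but spread widely, with the highest values in WT IL-2 replicate 1 and ortho IL-2 replicate 3. Aprt rose 1.43-fold and 1.61-fold (edgeR adjusted p = 0.0311 and 0.00717). With WT IL-2 it was not called without any 1 no IL-2 library or without WT IL-2 replicate 1 (log2 fold change between 0.29 and 0.65 over the libraries left out), and with neither cytokine was it called with the covariate (0.45 and 0.42, at 0.38 and 0.52 against 0.52 and 0.69).

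The balance between related enzymes was measured as a ratio of levels per length within each library, which does not depend on depth or scaling. GC offsets, which can move 2 genes unequally, were not applied to it. Over 7 pairs, the 6 IL-2 libraries were compared with the 3 without by a two-sided exact permutation test, for which the smallest possible p is 0.0238. Ctps/Ctps2 went from 0.0851, 0.0782 and 0.0951 without IL-2 to 0.396, 0.385 and 0.388 with WT IL-2 and 0.406, 0.369 and 0.385 with ortho IL-2. That is a 4.52-fold change of the ratio (exact permutation p = 0.0238, adjusted over the 7 pairs 0.0278). Nme1/Nme2 went from 0.118, 0.138 and 0.143 to between 0.312 and 0.349, a 2.46-fold change (the same p), subject to the reads shared with Gm20390 named above.

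The cytosolic folate enzymes gained on the mitochondrial ones. Shmt2/Shmt1 was 11.6, 12.9 and 19.3 without IL-2 and 8.52 to 10.7 with it, 1.54-fold lower. Mthfd1l/Mthfd1 was 8.19 to 8.61 without IL-2 and 3.97 to 4.89 with it, 1.92-fold lower, and Mthfd2/Mthfd1 was 6.29 to 6.67 and then 4.36 to 5.09, 1.39-fold lower. In all 3 of these ratios the groups did not overlap (exact permutation p = 0.0238, adjusted 0.0278), though the first rests on the few reads of Shmt1 at rest, and mitochondrial transcripts stayed the more abundant in every library. Mthfd1l/Mthfd1 and Mthfd2/Mthfd1 share the denominator Mthfd1 and are not independent. Prps1/Prps2 lay between 0.630 and 0.660 without IL-2 and between 0.666 and 0.750 with it (the same p), subject to the copy of Prps1 named above. Impdh1/Impdh2 lay between 0.634 and 0.682 without IL-2 and between 0.673 and 0.836 with it, with overlap (exact permutation p = 0.0476, adjusted 0.0476). Its adjusted p was 0.0714 when any 1 of WT IL-2 replicates 1 and 3 or of the 3 ortho IL-2 libraries was left out. With any 1 no IL-2 library left out, too few libraries remain for this test to reach p under 0.05 in any pair.

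**Figure D4:**
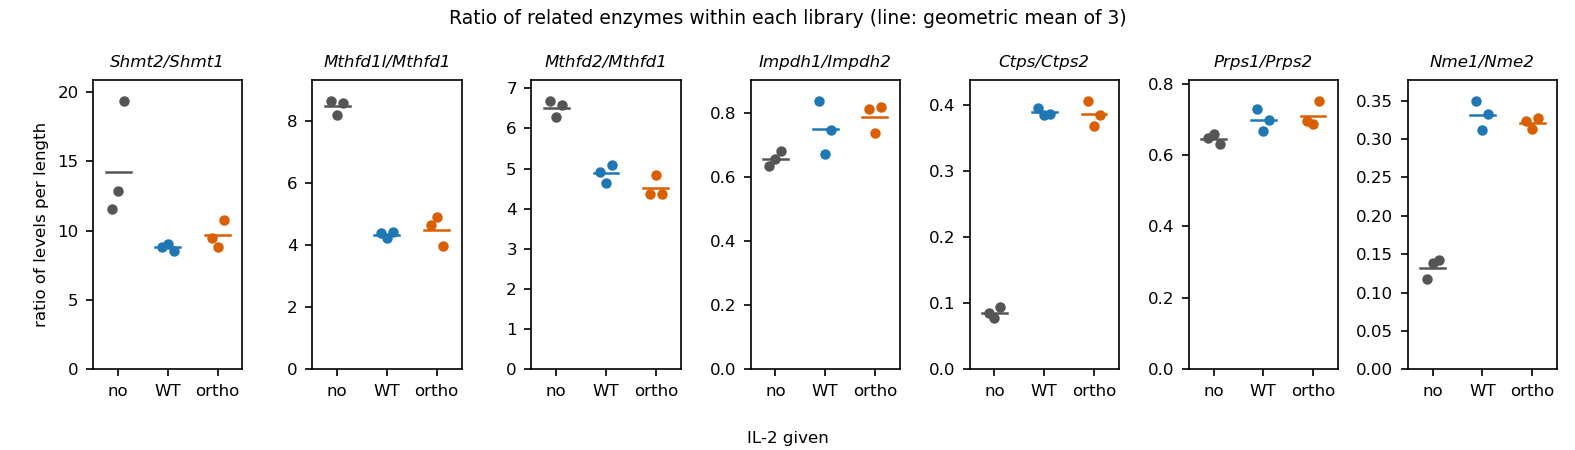
Ratio of the levels per length of 7 pairs of related enzymes in each library of the 3 groups; points are libraries, lines geometric means of 3, and each axis starts at 0. Ctps/Ctps2 goes from under 0.1 to 0.369 or more, and the 3 mitochondrial to cytosolic ratios (Shmt2/Shmt1, Mthfd1l/Mthfd1, Mthfd2/Mthfd1) are lower in every IL-2 library than in any without.

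Levels at rest and changes were set side by side over the 33 genes. The order at rest ran from Hprt (109.6 ± 2.86), Adss (86.6 ± 4.24), Paics (67.7 ± 1.42), Nme2 (52.1 ± 4.91) and Impdh2 (40.9 ± 1.01) down to Cad (3.05 ± 0.151), Ctps (2.85 ± 0.2995), Dhodh (1.68 ± 0.341) and Shmt1 (0.842 ± 0.167; mean ± SD, n = 3). Neighbours such as Mat2a (34.0 ± 0.808) and Ctps2 (33.1 ± 0.619), or Cad and Ctps, did not differ beyond their spread. The 11 genes above 20 at rest rose at most 2.00-fold for WT IL-2 and 1.97-fold for ortho IL-2, both in Mat2a, which lay just under 2-fold. The 10 genes that rose at least 2-fold lay at 0.842 to 17.3 at rest. The level at rest enters both the order and the change, so this is given as a description with no test.

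Ortho IL-2 was then compared with WT IL-2 directly, at the different doses given above. By edgeR, 0 of the 33 genes were called higher and 0 lower, where 0% of all genes tested were called in either direction. At an unadjusted p under 0.05, edgeR found 0 of the 33 and 153 of all genes, and DESeq2 found 0 and 114, with 0 called after adjustment. With WT IL-2 replicate 1 and ortho IL-2 replicate 3 both left out, edgeR called 12 of all genes higher and 1 lower with ortho IL-2, and 0 of the 33 in either direction. The smallest unadjusted edgeR p among the 33 was 0.0599, for Ahcy, 1.11-fold higher with ortho IL-2 (95% interval 0.995 to 1.24; adjusted p = 0.913). For 32 of the 33 the 95% interval of the ratio lay within 1.5-fold in either direction. Cad, for example, differed 0.998-fold (0.861 to 1.16), Phgdh 1.02-fold (0.908 to 1.15) and Ctps2 0.977-fold (0.894 to 1.07). The exception was Pycr1, at 0.688-fold with an interval from 0.211 to 2.247. These intervals bound the size of a difference at these doses and do not show that the cytokines act alike.

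**Figure D5:**
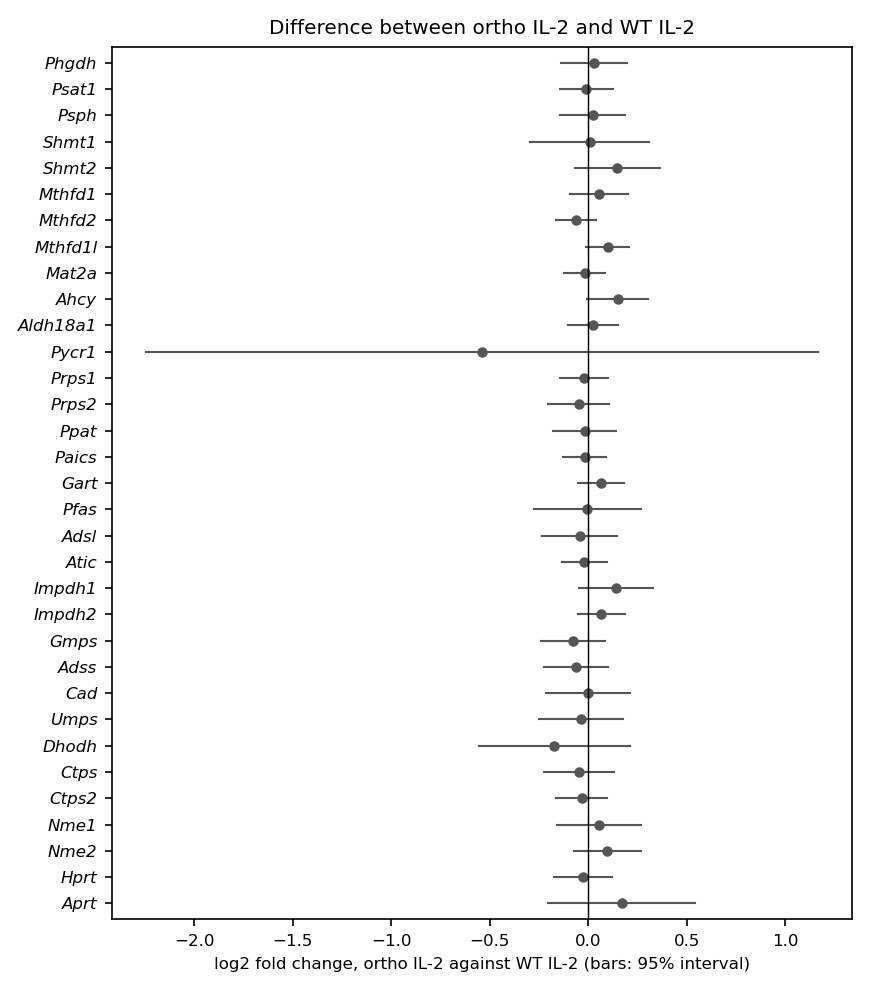
Log2 fold change of each of the 33 genes with ortho IL-2 against WT IL-2 (points), with bars for the 95% interval. Every bar crosses 0, and all but that of Pycr1 (0.211 to 2.247 as a ratio) stay within 1.5-fold.

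Other genes of the same pathways were listed without regard to their direction here, and up to 3 from each list are named by their p with WT IL-2. Their counts are to be read against the shares of all genes tested, 25.1% higher and 22.9% lower with WT IL-2 and 28.6% and 26.8% with ortho IL-2. Of 17 further folate and one-carbon genes, 14 were tested. With WT IL-2, 6 were higher, 3 lower and 5 not called (median log2 fold change 0.09), and with ortho IL-2 6 were higher, 4 lower and 4 not called (0.05). Gldc, the glycine decarboxylase, which breaks glycine down in mitochondria, lay at 0.410, 0.387 and 0.388 without IL-2, at 4.67, 4.43 and 4.34 with WT IL-2 and at 4.25, 3.77 and 4.13 with ortho IL-2. It was 11.3-fold and 10.2-fold higher, on 24 to 46 reads per library without IL-2. Like Shmt1 it met the filter only where it is high, and without a filter the values were 11.7-fold and 10.8-fold (edgeR adjusted p = 5.58e-13 and 9.29e-13). Gcsh, the carrier protein of the same complex, rose 3.98-fold and 3.47-fold, whereas Amt, its aminomethyltransferase, was called lower. Sfxn1, a mitochondrial serine transporter, rose 1.82-fold and 1.74-fold.

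Of 11 genes of proline, ornithine and glutamate metabolism, 10 were tested, with 5 higher, 3 lower and 2 not called in each comparison (median 0.04 for WT IL-2 and -0.00447 for ortho IL-2). The counts lower were close to the shares of all genes tested. Asns, asparagine synthetase, rose 3.76-fold and 3.63-fold. Glul, which makes glutamine, went from 61.2 ± 0.552 to 44.7 ± 1.32 and 45.4 ± 1.01 (SD, n = 3), and Got1, the cytosolic aspartate aminotransferase, from 34.4 ± 1.78 to 25.3 ± 0.903 and 26.3 ± 0.405. The falls of Glul and Got1 with ortho IL-2 were not called on unscaled RPKM (-0.15 and -0.11), and that of Got1 was not called with the covariate (edgeR adjusted p = 0.0522, at -0.39 as without it).

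Of 14 further methionine cycle and methylthioadenosine genes, 10 were tested, with 4 higher and 2 lower with WT IL-2 and 5 and 2 with ortho IL-2 (median 0.14 and 0.10). The counts lower were no more than the shares of all genes tested. Ahcyl2, a relative of Ahcy, rose 2.80-fold and 2.69-fold, Mtrr, which reactivates methionine synthase, 1.69-fold and 1.61-fold, and Enoph1, an enzyme of methionine salvage, 1.36-fold and 1.42-fold. With the covariate, Enoph1 was not called with either cytokine (log2 fold change 0.33 and 0.37) and Mtrr not with ortho IL-2 (0.60).

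Of 34 nucleotide salvage and interconversion genes, 29 were tested, with 7 higher, 7 lower and 15 not called with WT IL-2 and 11, 8 and 10 with ortho IL-2 (median 0.13 and 0.19). With WT IL-2 both counts were close to the shares of all genes. Adk, adenosine kinase, fell from 103 ± 3.47 to 56.4 ± 4.18 and 53.7 ± 2.94 (1.82-fold and 1.91-fold lower). Pnp, purine nucleoside phosphorylase, rose 1.51-fold with each. Of 6 deoxynucleotide genes, 5 were tested, with 1 higher and 1 lower in each comparison (median 0.07 and 0.03), no more than the shares of all genes. Rrm2, the small subunit of ribonucleotide reductase, rose 1.15-fold and 1.10-fold, and Samhd1, which degrades deoxynucleotides, was 1.11-fold and 1.15-fold lower, a direction that unscaled RPKM turned (0.06 and 0.08, not called). With the covariate neither was called (log2 fold changes of 0.18 and 0.11 for Rrm2, against 0.21 and 0.14, and of -0.13 and -0.16 for Samhd1, against -0.15 and -0.20), and Rrm2 with ortho IL-2 lost its call when replicate 1 or 3 of either group was left out. Samhd1 with WT IL-2 lost its call in the same way, and with both cytokines when low genes were kept. Dut, which removes dUTP, was not called (1.06-fold and 1.07-fold), although it was on unscaled RPKM.

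The transcription factors named above moved as well. Myc lay at 9.48, 10.7 and 10.8 without IL-2, at 63.1, 54.2 and 52.2 with WT IL-2 and at 55.2, 51.6 and 60.1 with ortho IL-2, a 5.48-fold and 5.40-fold rise. Atf4, at 74.1, 79.98 and 81.3 without IL-2, lay at 107, 107 and 103 with WT IL-2 and at 104, 105 and 117 with ortho IL-2, 1.35-fold and 1.39-fold higher, and was not called with the covariate (edgeR adjusted p = 0.056 and 0.13, at log2 fold changes of 0.25 and 0.24). Whether either factor acts on the 33 genes was not tested here.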

How the data were processed

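Each of the 9 tables deposited by the authors gives raw read counts and RPKM per transcript, per the file headers. The submitters' processing notes name mm10 and, as tools, edgeR, bedtools 2.25.0, SAMtools 0.1.8, TopHat2 and Bowtie2. What each did, and whether strand was used, is not given in the sources used here. Reads that fall where 2 genes overlap may therefore be shared, which concerns 13 of the 33, 3 of them on the same strand. Locations are those of GRCm38.

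Counts of the tested genes were scaled by TMM and fitted with the robust quasi-likelihood model of edgeR 4.0.16 in R 4.3.3 over all 9 libraries, with 6 residual degrees of freedom and two-sided tests. DESeq2 1.42.0 and limma 3.58.1 (log2 of RPKM plus 1) served as alternatives, and the fit was tested on simulated data. Copies were found with BLAST+ 2.17.0. The 33 genes, the pathway lists, the marker lists and the tests were chosen with earlier results of these data known. Named were all 33, Myc, Atf4 and the 3 genes of smallest p with WT IL-2 from each pathway list, of which 1 is not reported here. Amt was named after its value was seen. The left-out pair of libraries was chosen after seeing the data.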

Additional observations from a re-analysis of the deposited data

How the results depend on the processing

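Of the counts over the 33 genes, those called higher were 23 with each cytokine, Shmt1 included. They fell to 15 and 15 with the covariate, the share of reads outside genes. The covariate leaves fewer degrees of freedom and did not overlap between libraries with and without IL-2. Over all genes tested, calls higher then fell from 2688 to 1201 with WT IL-2 and from 3059 to 912 with ortho IL-2. Other settings gave 21 to 28, with 2185 to 4499 of all genes called higher for WT IL-2 and 2467 to 5566 for ortho IL-2. GC offsets lowered the median log2 fold change of the 33 from 0.52 to 0.41 for WT IL-2. For ortho IL-2 the median fell from 0.63 to 0.44. Over all genes tested the median was then -0.02 in each comparison, in place of 0.01. Single genes moved either way, such as Impdh1 (0.52 to 0.29) and Mat2a (1.00 to 1.05) for WT IL-2. The counts called lower, 2 for WT IL-2 and 3 for ortho IL-2, were 1 and 1 on unscaled RPKM with limma, on log2(RPKM + 0.1), without a filter and with the covariate. They ranged over 1 to 2 and 1 to 4 with 1 library left out. Ctps2 remained in each of them. Over all genes, calls lower were 841 and 832 on unscaled RPKM and 830 and 820 on log2(RPKM + 0.1). They were 2147 and 2756 without a filter and 902 and 638 with the covariate. With 1 library left out they were 1895 to 2562 and 2265 to 3151. On limma, Paics turned to 0.0694 and 0.0709 (WT IL-2) or 0.11 and 0.12 (ortho IL-2), Adss to 0.0497 and 0.0506 (ortho IL-2), and Samhd1 to 0.0606 and 0.0608 (WT IL-2) or 0.0796 and 0.0799 (ortho IL-2). Gmps turned to 0.22 on log2(RPKM + 0.1) and to 0.24 with GC offsets, with ortho IL-2. The log2 change of Impdh1/Impdh2, 0.23, ranged over 0.20 to 0.27 with 1 library left out. GC offsets were not applied to the ratios. In the single-gene fits with WT IL-2 they gave 0.29 for Impdh1 and 0.25 for Impdh2, against 0.52 and 0.33. Prps1 and Prps2 came to 0.25 and 0.21, against 0.20 and 0.09. Nme1 and Nme2 (1.86 and 0.35) and Ctps and Ctps2 (1.51 and -0.64) stayed further apart. The cause of these shifts was not tested.

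Correlations between the deviations of same-numbered libraries ran from -0.66 to 0.44 (9 pairs, 3 over 0.1). Those of differently numbered libraries ran from -0.57 to 0.60. Deviations were taken from means of 3 libraries, which ties the correlations to each other, so they cannot show whether the numbers pair the libraries. A replicate block called 23 genes higher and 2 lower for WT IL-2, 23 and 4 for ortho IL-2, and 0 between the cytokines. With it, Paics was not called with WT IL-2 and Pfas was called lower with both. At 22, 24 and 49 reads in the shallowest library, depth limits Shmt1, Gldc and Dhodh.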
